A study of Mus musculus with 2 samples.

Results

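The let-7 genes whose mature product comes from a single place in the mouse genome were examined in the hippocampus of young mice. They are Mirlet7b, Mirlet7d, Mirlet7e, Mirlet7g, Mirlet7i and Mir98, and they were chosen by symbol among the microRNA genes in the count tables, 6 of 2202. The mice were female B6CASTF1/J, the first-generation cross of C57BL/6J and CAST/EiJ, 14 days old and with no treatment or engineered allele named in the labels. The labels give 1 group of 2 biological replicates, each a pool labelled with 3 females and sequenced as 1 library of RNA sized below 30. The tissue label speaks of a layer of the hippocampus without naming it. There was no contrast between conditions, so the comparisons are among the genes and between the pools, and a difference between pools cannot be told apart from one in library preparation.

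The let-7 family takes its name from a microRNA that times development in the nematode, and in the mammalian brain its members accumulate as progenitors leave the cell cycle and neurons mature. A microRNA gene is copied into a hairpin, from which one or both arms are cut as mature strands. The mature strand recognises messenger RNAs mainly through its seed, bases 2 to 8, and lowers their stability or translation. Known targets of the family include Lin28a, Lin28b and Hmga2, and the LIN28 proteins in turn bind the loop of let-7 precursors and hold back their processing.

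The 5p mature strands are shown first, because they decide both what the genes have in common and whether a short read can be told from one of another family member. They are printed 5′ to 3′ from RefSeq on GRCm38.p6, with the seed in capitals, and let-7a-5p, which is no member, stands last for comparison.
let-7b-5p: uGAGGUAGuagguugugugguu
let-7i-5p: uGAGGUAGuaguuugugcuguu
let-7g-5p: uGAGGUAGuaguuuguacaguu
let-7d-5p: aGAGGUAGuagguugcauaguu
let-7e-5p: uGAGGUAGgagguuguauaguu
miR-98-5p: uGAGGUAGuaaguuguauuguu
let-7a-5p: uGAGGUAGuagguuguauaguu

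All 6 strands are 22 bases long, carry the seed GAGGUAG and end in UU, and 5 of the 6 begin with U. The differences from let-7a-5p lie outside the seed. Counted from 1 at the 5′ end, with the let-7a base first, let-7b-5p differs by A17G and A19G, and let-7d-5p by U1A and U16C. let-7e-5p differs by U9G alone, let-7g-5p by G12U and U18C, and miR-98-5p by G11A and A19U. let-7i-5p is the most distant, with G12U, A17G, U18C and A19U. Among the 15 pairs that the 6 strands form, the number of differing bases ran from 2, for let-7g-5p and let-7i-5p, to 6, for let-7d-5p and let-7i-5p. Among the let-7 strands outside the group, let-7c-5p is 1 base from let-7b-5p and let-7a-5p is 1 base from let-7e-5p. The strands of the other members are each 2 bases from the nearest let-7 strand compared. How many mismatches the alignment allowed is not given in the sources. The counts of Mirlet7b and Mirlet7e can depend on it from 1 mismatch on, and those of the other members from 2.

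Each of the 12 mature sequences of the 6 genes, counting both arms, is listed at 1 locus in the RefSeq table. That listing is not enough alone, since it also gives let-7a-5p 1 locus, the 5p arm of Mirlet7a-2 not being listed there. The 3p strands are also 22 bases long but have 5 different seeds, of which only UAUACAA, in let-7b-3p and miR-98-3p, occurred in more than 1 member. The longest run of bases that a precursor shares with any other microRNA gene, its antisense partner aside, was 19 for Mirlet7b (with Mirlet7c-2) and 19 between Mirlet7g and Mirlet7i. It was 17 for Mirlet7e and Mir98 and 14 for Mirlet7d, so no whole mature strand of 22 bases recurs in another of these precursors. For the 6 let-7 genes with several loci, Mirlet7a-1, Mirlet7a-2, Mirlet7c-1, Mirlet7c-2, Mirlet7f-1 and Mirlet7f-2, it was between 22 and 26, at least as long as a mature strand of 22 bases.

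The 6 genes lie on 6 chromosomes of GRCm38. Mirlet7b (ENSMUSG00000065564.1) is at chromosome 15, 85707319 to 85707403, on the plus strand inside an exon of the non-coding gene Lncppara. Mirlet7d (ENSMUSG00000065453.1) is at chromosome 13, 48536012 to 48536114, on the minus strand inside an exon of the lincRNA 6720427I07Rik. Mirlet7i (ENSMUSG00000065406.3) is at chromosome 10, 122985640 to 122985724, on the minus strand inside an exon of the transcribed pseudogene D630033A02Rik. The other members are intronic and on the plus strand. Mirlet7g (ENSMUSG00000065440.1) lies at chromosome 9, 106178840 to 106178927, in Wdr82, which encodes a subunit of histone methyltransferase complexes. Mirlet7e (ENSMUSG00000105758.1) lies at chromosome 17, 17830352 to 17830444, in Spaca6, which encodes a sperm protein needed for fertilisation. Mir98 (ENSMUSG00000065536.2) lies at chromosome X, 151913214 to 151913321, in Huwe1, which encodes a ubiquitin ligase.

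The GC content of the hairpins ran from 44.4% in Mir98 to 62.4% in Mirlet7e.

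Sense counts over all microRNA genes summed to 4764797 in replicate 1 and 2852269 in replicate 2, which were 36.1% and 36.4% of the reads. Multi-mapping reads, 40.8% and 37.1% of all reads, are in no gene count, so levels hold for uniquely assigned reads only. Of the neuron markers, 9 of 12 reached 10 counts in each library, and the list held 2.57% ± 0.0346 (SD, n = 2) of the counts. The summed share was nearly level, but its genes were not. By the binomial test given below, 4 of the 9 tested were higher in replicate 2, 3 were lower and 2 did not pass. Their median log2 ratio of replicate 2 to replicate 1 was -0.24. The 3 copies of Mir124a, the defining neuronal microRNA, summed to 12 and 20 counts, but their shared mature reads can be multi-mapping and are then in no gene count, so this value says little of neurons. Other markers listed here in several copies can lose reads in the same way. Markers of other tissues also differed between the pools. The 7 choroid plexus and ciliated cell genes, of which 4 were detected in both, held 0.395% in replicate 1 and 0.119% in replicate 2, with Mir449b at 0 in both, and the 8 other epithelial genes held 0.0106% and 0.0505%. Mir126a, the endothelial marker, held 0.997% and 1.69%, and smooth muscle markers 0.5997% and 0.348%. Oligodendrocyte markers held 0.193% and 0.320%, microglial and immune markers 0.114% and 0.0930%, and red blood cell markers 0.0290% and 0.0722%. Some of these lists did not move as one. Among red blood cell markers Mir451a had a log2 ratio of 1.73, while Mir144 and Mir486, at -0.21 and -0.17, did not pass the test. Among oligodendrocyte markers Mir338, at -0.05, did not pass.

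The 6 genes together held 1377009 counts in replicate 1 and 729098 in replicate 2. That was 28.9% (exact Clopper-Pearson 95% interval 28.86 to 28.94) and 25.6% (25.5 to 25.6) of the assigned counts, a mean of 27.2% ± 2.36 (SD, n = 2). With TMM-scaled library sizes as the denominator, which are meant to correct for the make-up of the libraries, the SD was 0.731 in place of 2.36. That value is no longer a share of the assigned counts. Without Mirlet7b the share of assigned counts was 16.9% ± 0.206, a sum in which lower Mirlet7d and Mirlet7e and higher Mirlet7g, Mirlet7i and Mir98 in replicate 2 nearly cancelled. All intervals and floors describe the counting error of reads alone. They do not cover the spread between pools, and amplified reads need not count molecules one by one.

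Mirlet7b had the highest count of any microRNA gene in both libraries. It had 566007 counts in replicate 1 and 251920 in replicate 2, or 118789 and 88323 CPM (the count scaled to 1000000 assigned sense counts per library), a mean of 103556 ± 21543 CPM (SD, n = 2). Mirlet7i had 294227 and 194303 counts, 61750 and 68122 CPM, with a mean of 64936 ± 4506. It stood at rank 3 in replicate 1 and rank 4 in replicate 2. Mirlet7g had 273638 and 166910 counts, 57429 and 58518 CPM, with a mean of 57974 ± 770.2.

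Mirlet7i and Mirlet7g, the members with the most similar mature strands, were also the closest in level. The levels of both were slightly higher in replicate 2 and the level of Mirlet7b was lower there, and the CPM ranges of these 3 genes did not overlap. The scaling decides part of this: on TMM-scaled sizes Mirlet7i had 59190 and 71069 CPM and Mirlet7g 55048 and 61050, and the ranges overlapped. The SD was then 4244 for Mirlet7g and 8400 for Mirlet7i.

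Mirlet7d had 132462 and 66473 counts, 27800 and 23305 CPM, with a mean of 25553 ± 3178 and the same rank of 9 in both libraries. Mirlet7e had 98296 and 40628 counts, 20630 and 14244 CPM, with a mean of 17437 ± 4515. Mir98 had 12379 and 8864 counts, 2598 and 3108 CPM, with a mean of 2853 ± 360. Mir98 stood well below the rest, at rank 63 in replicate 1 and 52 in replicate 2, although its seed and length are those of the other members.

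**Figure D1:**
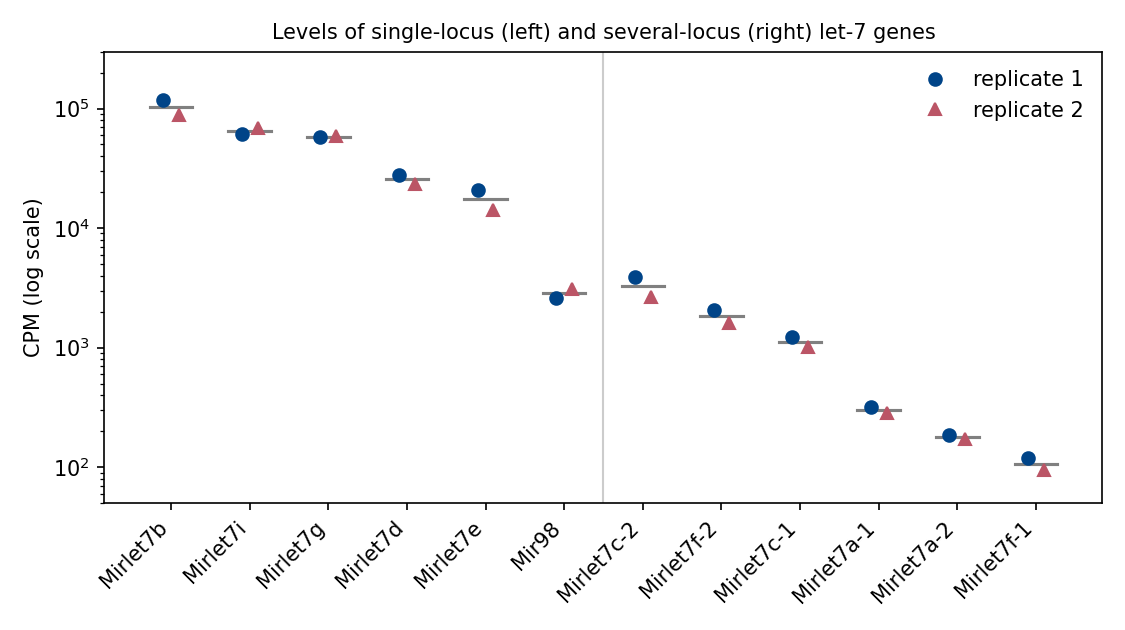
Level in CPM on a log axis for the 6 single-locus let-7 genes (left of the line) and the 6 let-7 genes with several loci (right), with circles for replicate 1, triangles for replicate 2 and grey bars for the mean of both. The single-locus genes fall from 103556 CPM for Mirlet7b to 2853 CPM for Mir98, and the genes with several loci start at 3272 CPM for Mirlet7c-2.

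The order Mirlet7b, Mirlet7i, Mirlet7g, Mirlet7d, Mirlet7e, Mir98 was the same in both libraries. All 15 pairs of members kept their order, and in all 15 the lower library of one gene lay above the higher library of the other in CPM. On TMM-scaled sizes this held for 14 of the 15, Mirlet7i and Mirlet7g being the exception. The closest neighbours were Mirlet7i and Mirlet7g, at a ratio of 1.08 in replicate 1 (counting interval 1.07 to 1.08) and 1.16 in the other library (1.16 to 1.17). With 2 libraries no test of the order was made. Mirlet7d exceeded Mirlet7e by 1.35-fold and 1.64-fold. Mirlet7b exceeded Mir98, the far end of the order, by 45.7-fold and 28.4-fold. Since all 6 5p strands have the same length, a level per base of mature strand gives the same order.

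Within the 6 genes, Mirlet7b made up 41.1% of the counts in replicate 1 and 34.6% in replicate 2. Mirlet7i made up 21.4% and 26.6%, and Mirlet7g 19.9% and 22.9%. Mirlet7d took 9.62% and 9.12%, Mirlet7e 7.14% and 5.57%, and Mir98 0.899% and 1.22%. The make-up of the group thus moved from Mirlet7b and Mirlet7e toward Mirlet7i and Mirlet7g in replicate 2, with Mirlet7d nearly level. These shares do not depend on how the libraries are scaled.

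**Figure D2:**
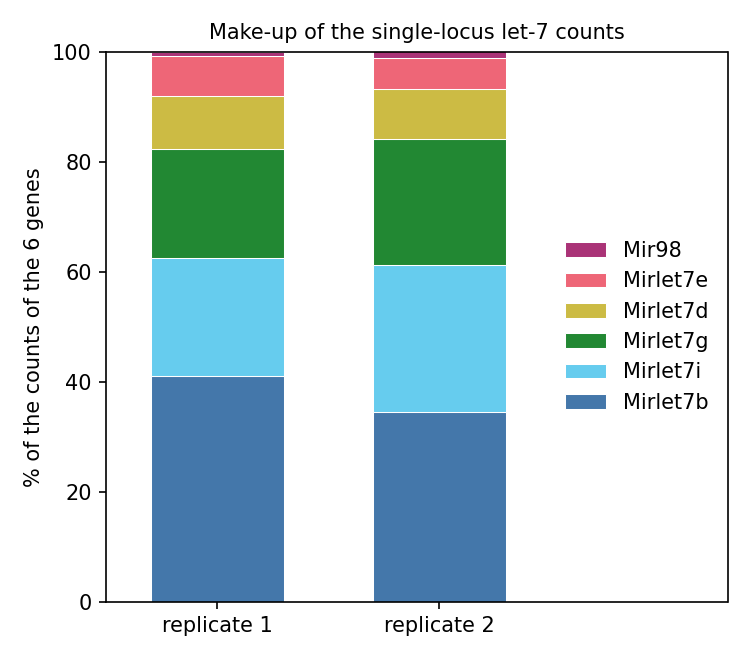
Share of each of the 6 single-locus let-7 genes, in percent of their summed sense counts, in replicate 1 and replicate 2. Mirlet7b is the largest part of both bars, 41.1% and 34.6%, and Mir98 the smallest, 0.899% and 1.22%.

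Among all annotated mature strands, 13 genes carry the seed GAGGUAG on an annotated strand. They held 29.7% of the assigned counts in replicate 1 and 26.1% in replicate 2, and the 6 single-locus genes gave 97.4% and 97.8% of that. The other carriers were 5 of the several-locus let-7 genes, Mir7k with 5 and 0 counts, and Mir1961 with none. The 6 let-7 genes with several loci held 0.780% and 0.583% of the assigned counts in all, from 3272 ± 861 CPM (SD, n = 2) for Mirlet7c-2 down to 107 ± 18.7 CPM for Mirlet7f-1. Reads of a mature strand with several loci can be multi-mapping and are then in no gene count, so this gap is one between assigned reads.

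Strand mattered for 1 member. Gm25927 is annotated on the opposite strand over the whole 93 bases of Mirlet7e. In the strand-specific column Mirlet7e had 98296 and 40628 counts while Gm25927 had 0 in both libraries, which allows up to 0.630 and 1.05 CPM at a floor of 3 counts. In the unstranded column both genes had 0 counts. Reads over both genes are set aside there as ambiguous, and the sense reads of Mirlet7e equalled 33.0% and 22.4% of all reads so set aside. The counts of Mirlet7d, Mirlet7g and Mirlet7i were identical in the sense and unstranded columns, and those of Mirlet7b and Mir98 differed by at most 9.

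Between the pools, Mirlet7b, Mirlet7d and Mirlet7e were lower in replicate 2, and Mirlet7g, Mirlet7i and Mir98 were higher. Library sizes were scaled by TMM, and a two-sided exact binomial test was applied to the 450 genes whose counts summed to 20 or more, with Benjamini-Hochberg adjustment over all of them. The log2 ratio of replicate 2 to replicate 1 was -0.31 (95% counting interval -0.31 to -0.30) for Mirlet7b, -0.13 (-0.15 to -0.12) for Mirlet7d and -0.41 (-0.43 to -0.40) for Mirlet7e. It was 0.15 (0.14 to 0.16) for Mirlet7g, 0.26 (0.26 to 0.27) for Mirlet7i and 0.38 (0.34 to 0.42) for Mir98. The largest of these, for Mirlet7e, was a level in replicate 2 of 0.752 times that in replicate 1. The direction of each member was the same under every scaling tried.

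All 6 members passed the filter on low counts, and all 6 passed the binomial test, with adjusted p-values of at most 5.1e-78. So did 64.9% of all tested genes, and 98.1% of the 52 other genes whose mean count reached 10000. By direction, 3 members were higher and 3 lower in replicate 2, beside 32.9% higher and 32% lower of all tested genes and 51.9% higher and 46.2% lower of the high-count genes. At such counts nearly every gene passes, so the number of members that passed is no result about let-7. The test compares these libraries, not conditions. None of the 6 reached a 1.5-fold difference, which 34.9% of tested genes and 36.5% of the 52 high-count genes did while passing the test.

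The sizes of the differences say more than the calls. The median absolute log2 ratio was 0.28 over the 6 members, 0.37 over the 52 other high-count genes and 0.51 over all 450 tested genes. The median log2 ratio of the 6 members was 0.01, as it was for all tested genes. TMM scaling sets the bulk of the ratios near 0, so this match is no result about let-7. Mirlet7d, with an absolute log2 ratio of 0.13, ranked 396 of 450 by size, and Mirlet7e, the member with the widest difference, ranked 264. Of the 52 high-count genes, 10 had a smaller absolute log2 ratio than Mirlet7d, 12 a smaller one than Mirlet7g and 27 a smaller one than Mirlet7e. The coefficient of variation of the TMM-scaled level ran from 6.48% for Mirlet7d to 20.1% for Mirlet7e. On total counts Mirlet7g had the smallest, 1.33%, but on TMM-scaled sizes it had 7.31%.

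The choroid plexus and epithelial markers given above differed far more between the pools, with median log2 ratios of -1.42 over 5 tested genes (4 lower) and 2.62 over 7 tested genes (7 higher). Their part in the let-7 differences was not tested. The let-7 genes are expressed in many cell types, and in pooled tissue a smaller number of cells of one type and less RNA per cell cannot be told apart.

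**Figure D3:**
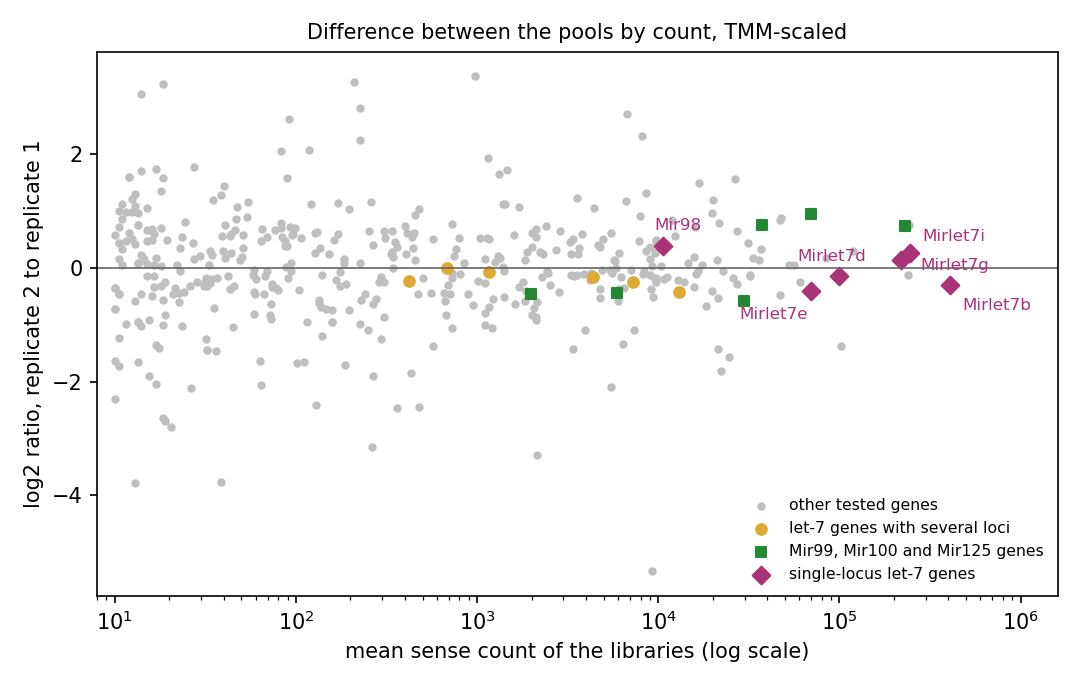
Log2 ratio of replicate 2 to replicate 1 after TMM scaling (vertical) against the mean sense count on a log axis, for 450 tested microRNA genes in grey, with the single-locus let-7 genes as labelled diamonds, the let-7 genes with several loci as circles and the Mir99, Mir100 and Mir125 genes as squares. The diamonds lie between -0.41 (Mirlet7e) and 0.38 (Mir98), at the high-count end.

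Ratios between members within a library need no scaling. The log2 change of such a ratio is the difference between the log2 ratios of both members, so it is no separate support. Mirlet7b and Mirlet7e kept the most even ratio of the 15 pairs, 5.76 in replicate 1 (counting interval 5.72 to 5.80) and 6.20 in the other library (6.14 to 6.27), a log2 change of 0.11. Mirlet7i and Mirlet7g, and Mirlet7i and Mir98, also moved little, with log2 changes of 0.11 and -0.12. The widest change was between Mirlet7e and Mir98, from 7.94 (7.79 to 8.09) to 4.58 (4.48 to 4.69), a log2 change of -0.79. By that identity, the pair joins the member that was lowest in replicate 2 relative to replicate 1 with the one that was highest.

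Of the 6 members, 4 share a cluster with other microRNA genes on the same strand within 10 kb. The members and their cluster mates can come from 1 primary transcript. Mirlet7b starts 622 bases past Mirlet7c-2, and its count was 30.6 times that of Mirlet7c-2 in replicate 1 (counting interval 30.2 to 31.1) and 33.2 times that in replicate 2 (32.4 to 33.9). Mirlet7d lies within 2065 bases of Mirlet7a-1 and Mirlet7f-1. It exceeded Mirlet7a-1 by 86.7-fold (82.4 to 91.2) and 82.7-fold (77.1 to 88.7), and Mirlet7f-1 by 232-fold (213 to 252) and 249-fold (221 to 282). In both of these clusters the ratio of member to mate differed by less than 1.1-fold between the pools, and for Mirlet7d the counting intervals overlapped. The size of the ratios rests on assigned reads, since mature strands of the mates have several loci.

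The other clusters were less even. Mir98 lies 786 bases past Mirlet7f-2 in Huwe1, and its count was 1.25 times (1.22 to 1.29) that of Mirlet7f-2 in replicate 1 and 1.93 times (1.86 to 2.0) in replicate 2. Mir98 was higher in replicate 2 while Mirlet7f-2, at a log2 ratio of -0.24, was lower. Since let-7f-5p has 2 loci, the values of Mirlet7f-2 rest on assigned reads here too. Mirlet7e stands 95 bases past Mir99b and 368 bases before Mir125a in Spaca6. Against Mir125a its count ratio was 2.25 (2.22 to 2.27) in replicate 1 and reached 2.52 (2.47 to 2.56) in the other library. Against Mir99b it was 1.47 (1.45 to 1.48) and 0.567 (0.560 to 0.574), so the nearer neighbour changed place with Mirlet7e and the farther one did not. The log2 ratio of replicate 2 to replicate 1 was -0.41 for Mirlet7e, 0.96 for Mir99b and -0.58 for Mir125a.

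**Figure D4:**
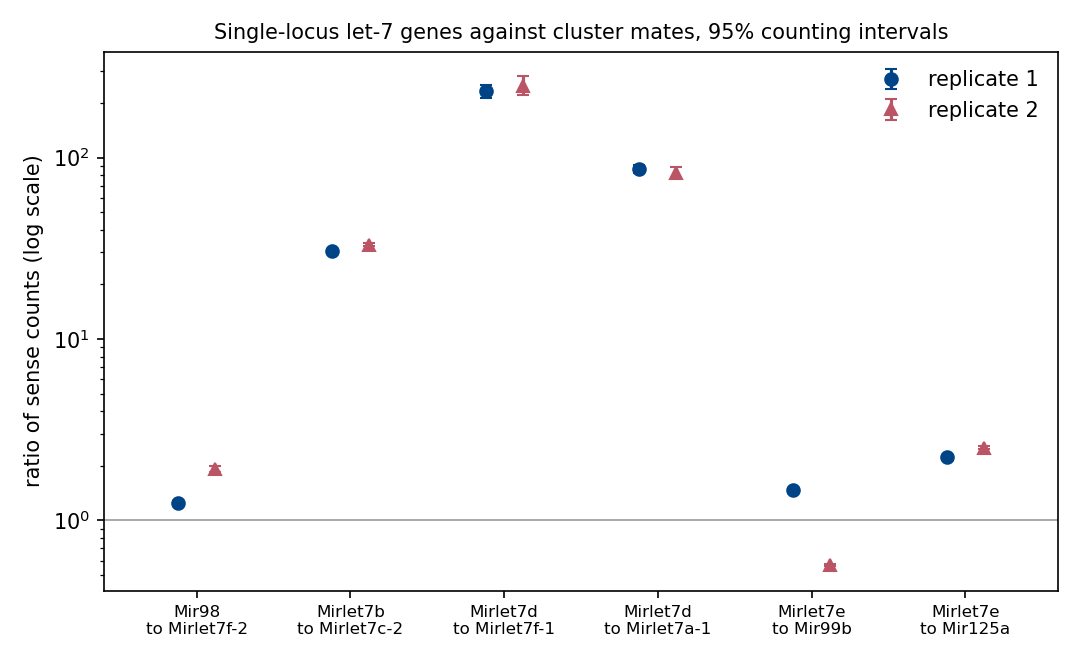
Ratio of the sense count of a single-locus let-7 gene to that of a microRNA gene in the same cluster, on a log axis, for replicate 1 (circles) and replicate 2 (triangles), with exact 95% counting intervals. The ratios for Mirlet7b and Mirlet7d lie close together in both replicates, while Mirlet7e to Mir99b falls from 1.47 to 0.567 and Mir98 to Mirlet7f-2 goes from 1.25 to 1.93. Ratios to let-7 genes with several loci rest on assigned reads.

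The related genes also differed between the pools. Of the 6 let-7 genes with several loci, 4 were lower in replicate 2 by the binomial test and none was higher. Of all tested genes, 32% were lower and 32.9% higher. The median log2 ratio of the 6 was -0.20, and Mirlet7a-1 and Mirlet7a-2 did not pass, at -0.06 and 0.00. With total counts as library sizes all ratios shifted by -0.12. Of the 6 Mir99, Mir100 and Mir125 genes, which sit in let-7 clusters, 3 were higher and 3 lower, beside the 32.9% and 32% given above for all tested genes. The higher ones were Mir99a, Mir99b and Mir100, at 0.74, 0.96 and 0.75, and the lower ones Mir125a, Mir125b-1 and Mir125b-2, at -0.58, -0.44 and -0.46.

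The gene outside the family most like each member was found by the smallest Euclidean distance in log2(CPM + 1) over the 2 libraries. Mir139 was nearest to Mirlet7g, Mirlet7i and Mirlet7b, at distances of 0.22, 0.31 and 1.07, with 66431 and 55790 CPM. Mir433 was nearest to Mirlet7d (0.36) and Mir23b to Mirlet7e (0.25). Mir532 was nearest to Mir98 (0.18), with 2320 and 2965 CPM. The log2 ratios of Mir532 (0.48), Mir23b (-0.24) and Mir139 (-0.13) had the same sign as those of Mir98, Mirlet7e and Mirlet7b. Mir139 had the opposite sign to Mirlet7g and Mirlet7i, and Mir433 (0.18) the opposite sign to Mirlet7d. The distance uses both libraries, so a shared sign is partly built into it. With 2 libraries the likeness by distance is mostly one of level, and Mirlet7b had no gene outside the family near it.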

How the data were processed

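The authors deposited 1 table of raw counts per library, made on mm10 with GENCODE M21 per the deposited description files. Neither the aligner, its mismatch setting nor the counter was given in the sources used here. A count is for a precursor gene, so its arms are not separated. Of the 2 stranded columns, the one with the higher sum was read as sense. Reads not assigned to 1 gene stayed out of totals and tests. All 2202 gene identifiers matched M21.

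CPM used the sense total. Ratios used TMM factors from edgeR 4.0.16 (R 4.3.3) over the 450 tested genes, and scipy 1.17.1 gave exact tests and 95% intervals. With 1 library per pool no fit with replicate spread was possible. On simulated counts for 450 genes, the test called 1.2% of 250 unchanged genes, 46% of 100 genes with a 1.2-fold and 85% of 100 with a 2-fold change. The simulated counts held counting noise alone, with no spread between pools, so these rates do not carry over to the real libraries. Sequences of all 12 let-7 genes were matched in the RefSeq table by symbol. Named genes were the members, the other let-7 genes and their cluster mates, antisense and host genes, the gene nearest in level and cell type markers. Mir7k and Mir1961 were added after their values were seen. Members and lists were chosen with earlier results of these data known. Alternatives were other scalings (DESeq2 1.42.0 size factors, totals, Mirlet7b left out), the unstranded column, other filters, thresholds and denominators, thinning, and leaving out each replicate. Loop sequences are not reported here.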

Additional observations from a re-analysis of the deposited data

Results flagged for a closer look

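The opposite-strand column, which no comparison used, held 9 counts at Mirlet7b in replicate 1, above the limit of 3 counts that a count of 0 allows, beside 566007 sense counts. Replicate 2 had 1 such count. No microRNA gene is annotated on the other strand there.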

How the results depend on the processing

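The direction and call of each member's log2 ratio were the same in all 41 values from the scaling, filter, strand and thinning alternatives. All of them reuse the same libraries, and a change of scaling shifts every ratio by the same amount, so these values are not separate support. Mirlet7g came closest to 0, at 0.03 with total counts as library sizes. The unstranded column gave no ratio for Mirlet7e, which has 0 counts there. The number of members past the test fell from 6 to 0 when a 1.5-fold difference was also required, and that of all genes from 292 to 157. The share of the 6 genes, 27.2%, was 9.87% of all reads, 97.6% of the 12 let-7 genes and 16.9% without Mirlet7b, and from 25.6% to 28.9% with either replicate left out. No paired analysis was possible because there is 1 group. Replicates are 2 pools, so an SD rests on 2 values, and labels do not say which steps of preparation the libraries shared.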
